A study of Mus musculus with 5 samples.

Results

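The genes described here were *C1qa*, *C1qb*, *C1qc*, *Vcam1*, *Hmox1*, *Slc40a1*, *Spic*, *Cd5l*, *Axl* and *Mertk*, which serve complement, the engulfment of dying cells and the recycling of iron by macrophages. They were chosen by symbol from the gene list of the count matrices, and all 10 were present among 31053 genes. Counts of unique molecular identifiers (UMIs), each of which stands for 1 captured transcript, were summed over the cells of a class and are given per 1000000 UMIs of the same cells (CPM).

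Single-cell RNA was measured in bone marrow (BM) of BALB/c mice aged 4 to 8 weeks, with no genetic change named in the labels. The treated mice had received an intraperitoneal injection of 150 mg/kg cyclophosphamide (CTX), an alkylating drug that kills dividing cells, and the naive mice were untreated. Whole BM came from naive mice, from mice at day 2 (D2 CTX) and from mice at day 7 (D7 CTX) after the injection, each library being a pool of 3 mice. Monocytes gated as CD11b+Ly6Chi were sorted from BM of naive and of CTX-treated mice. The labels of the sorted libraries give neither the day after CTX nor the number of mice. Red cells were lysed when BM was taken, and dead cells were removed from whole BM before sequencing, a step that is not stated for the sorted monocytes. The comparisons ask where in the marrow these genes were expressed and how their levels stood at D2 and D7 beside naive BM. Each condition had 1 library, so no difference could be set against a spread between mice and no test or p-value is given. Intervals in brackets are exact 95% intervals and cover counting error only. UMIs of 1 cell are not independent, and fewer cells of a class and less RNA per cell cannot be told apart in the sums over a whole library.

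After filtering, 7104 naive, 6126 D2 CTX and 8290 D7 CTX cells of whole BM were kept, with a median depth of 3953.5, 3033.5 and 7189.5 UMIs per cell. The sorted libraries held 1891 naive and 2564 CTX cells. Any pair of libraries shared between 2 and 16 cell barcodes.

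Macrophages of the marrow sit at the centre of erythroblastic islands, where they hold maturing erythroblasts through the adhesion molecule VCAM1, take up the expelled nuclei and clear aged red cells. Heme from the red cells is split by heme oxygenase 1, the product of *Hmox1*, and the freed iron leaves the macrophage through ferroportin, the product of *Slc40a1*. The transcription factor SPIC is needed for these iron-recycling macrophages, and heme induces *Spic* by removing the repressor BACH1, which also holds *Hmox1* down. *C1qa*, *C1qb* and *C1qc* encode the 3 chains of C1q, which starts the classical complement pathway and marks apoptotic cells. AXL and MERTK are receptor tyrosine kinases that recognise dying cells through bridging proteins, and CD5L is a secreted protein of tissue macrophages.

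The macrophages were 1 cluster of 27 in whole BM, found with the 10 genes left out of the genes that drove the clustering and named from other markers. *Mrc1*, the mannose receptor, stood at 1352, 1232 and 1322 CPM in naive, D2 CTX and D7 CTX macrophages. *Fcna*, a ficolin of tissue macrophages, stood at 1646, 1811 and 685 CPM, and *Adgre1*, which encodes F4/80, at 174, 181 and 212 CPM. *Ccr3* was at 523, 912 and 614 CPM. *Timd4*, a receptor for phosphatidylserine, was at 229, 189 and 354 CPM. *Apoe* was at 1602, 1544 and 6209 CPM. *Siglec1* was at 54.5, 156 and 118 CPM, from 5, 38 and 5 UMIs. *Vsig4* was at 10.9, 123 and 189 CPM, from 1, 30 and 8 UMIs, and the 8 at D7 lay in 1 cell. *Marco* was at 10.9, 45.2 and 0 CPM. Outside *Apoe*, B lineage cells of the same libraries held no more than 3.15 CPM of any of these markers. The 10 leading genes of the cluster were *C1qa*, *C1qc*, *Fcna*, *C1qb*, *Hmox1*, *Axl*, *Mrc1*, *Cd5l*, *Sdc3* and *Vcam1*. The markers above had given the cluster its name, so their levels are no separate check of the label macrophage.

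The cluster held 65 naive, 129 D2 CTX and 20 D7 CTX cells. Macrophages made 0.915%, 2.11% and 0.241% of the kept cells of these libraries. The share was 2.30-fold higher at D2 than in naive BM, with a log2 interval of [0.76 to 1.66], and 3.79-fold lower at D7, a log2 ratio of -1.92 [-2.72 to -1.18]. Over the same times the erythroblasts, the partners of these macrophages, made 5.26%, 1.11% and 0.217% of kept cells, and monocytes 5.69%, 2.53% and 6.63%. A share is relative to the cells that remained, and no absolute number of cells was measured here. The macrophages were shallow, with a median of 767, 860 and 797 UMIs, and 61.5%, 57.4% and 60% of them held fewer than 1000 UMIs. Doublet scoring marked 4, 10 and 0 of them, and they were kept.

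The 3 C1q genes lie side by side on chromosome 4 within 18675 bases, all on the minus strand. In GENCODE M21 on GRCm38, *C1qb* (ENSMUSG00000036905) spans chr4:136880129-136886187, *C1qc* (ENSMUSG00000036896) chr4:136889804-136893065 and *C1qa* (ENSMUSG00000036887) chr4:136895917-136898803. *Vcam1* (ENSMUSG00000027962) lies at chr3:116109949-116129688 and *Cd5l* (ENSMUSG00000015854) at chr3:87357881-87371073. *Hmox1* (ENSMUSG00000005413) lies at chr8:75093621-75100589, *Slc40a1* (ENSMUSG00000025993) at chr1:45908068-45926523 and *Spic* (ENSMUSG00000004359) at chr10:88674772-88685015. *Axl* (ENSMUSG00000002602) lies at chr7:25757273-25788705 and *Mertk* (ENSMUSG00000014361) at chr2:128698956-128802894.

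Promoter sequence from RefSeq, the 250 bases before the RefSeq transcription start on GRCm38.p6, was held for 6 of the 10 genes. The 4 printed here belong to genes whose UMIs lay mostly in macrophages, and they are shown so that the letters in front of the C1q genes can be read beside those of *Spic* and *Cd5l*. Capitals mark GAGGAA or its reverse complement TTCCTC, the core bound by the ETS factors PU.1 and SPIC, and TGCTGA or its reverse complement TCAGCA, the core of the sites bound by MAF factors. The windows are chr4:136886201-136886450 (minus strand) for *C1qb*, chr4:136892915-136893164 (minus) for *C1qc*, chr10:88683024-88683273 (minus) for *Spic* and chr3:87357631-87357880 (plus) for *Cd5l*. RefSeq starts can differ from the GENCODE gene ends given above. The *Spic* window lies wholly, and the *C1qc* window partly, inside the GENCODE span of its gene.
C1qb: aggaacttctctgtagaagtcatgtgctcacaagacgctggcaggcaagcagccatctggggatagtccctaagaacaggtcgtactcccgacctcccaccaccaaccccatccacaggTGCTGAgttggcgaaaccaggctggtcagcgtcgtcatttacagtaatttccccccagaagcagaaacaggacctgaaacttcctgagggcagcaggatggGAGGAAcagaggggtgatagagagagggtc
C1qc: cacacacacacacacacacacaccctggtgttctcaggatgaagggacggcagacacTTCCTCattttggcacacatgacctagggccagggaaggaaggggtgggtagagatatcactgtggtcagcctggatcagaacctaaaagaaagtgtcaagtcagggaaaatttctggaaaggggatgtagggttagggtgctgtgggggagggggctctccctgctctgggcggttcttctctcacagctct
Spic: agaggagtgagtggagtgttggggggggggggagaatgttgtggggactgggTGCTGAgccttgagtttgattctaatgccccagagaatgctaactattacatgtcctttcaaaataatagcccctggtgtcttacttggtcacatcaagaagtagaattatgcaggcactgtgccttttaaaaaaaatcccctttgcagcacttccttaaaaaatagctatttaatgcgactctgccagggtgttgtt
Cd5l: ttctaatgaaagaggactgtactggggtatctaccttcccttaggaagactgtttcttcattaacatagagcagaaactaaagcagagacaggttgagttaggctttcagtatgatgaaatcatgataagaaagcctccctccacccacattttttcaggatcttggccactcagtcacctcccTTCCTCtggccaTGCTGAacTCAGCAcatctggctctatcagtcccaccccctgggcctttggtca

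GAGGAA on either strand was found in 7639 of 32851 mouse promoters of the same length (23.3%) and TGCTGA in 5282 (16.1%). In the *C1qb* promoter GAGGAA began 30 bases and TGCTGA 131 bases before the start. *C1qc* held TTCCTC at 193 bases and neither form of TGCTGA. *Cd5l* held TTCCTC at 66 bases, TGCTGA at 54 and TCAGCA at 46. *Spic* held TGCTGA at 198 bases and no GAGGAA in either form. Of the remaining pair, *Axl* held TTCCTC at 130 bases and *Mertk* neither motif. A match describes the letters alone, and no binding was measured here.

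The C1q genes were at high levels in the macrophages of all 3 libraries. *C1qa* had 229, 639 and 139 UMIs in naive, D2 CTX and D7 CTX macrophages, which are 2496, 2624 and 3282 CPM. *C1qb* had 114, 368 and 78 UMIs, or 1243, 1511 and 1841 CPM. *C1qc* had 129, 431 and 82 UMIs, or 1406, 1770 and 1936 CPM. All 3 chains were lowest in naive and highest in D7 CTX macrophages, by steps that were small beside those of *Hmox1*. Their sum stood at 5145 [4691 to 5631], 5905 [5604 to 6219] and 7059 [6282 to 7906] CPM, in the same order of libraries. Over naive, this is a log2 ratio of 0.20 [0.05 to 0.35] for D2 and 0.46 [0.24 to 0.67] for D7. When each cell was given the same weight, by the mean of the cells' CPM, the D2 ratio was -0.17, so its direction depends on the summing. The mixture of chains was alike: *C1qa* gave 48.5%, 44.4% and 46.5% of the C1q UMIs in naive, D2 CTX and D7 CTX macrophages, *C1qb* 24.2%, 25.6% and 26.1%, and *C1qc* 27.3%, 29.97% and 27.4%.

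**Figure D1:**
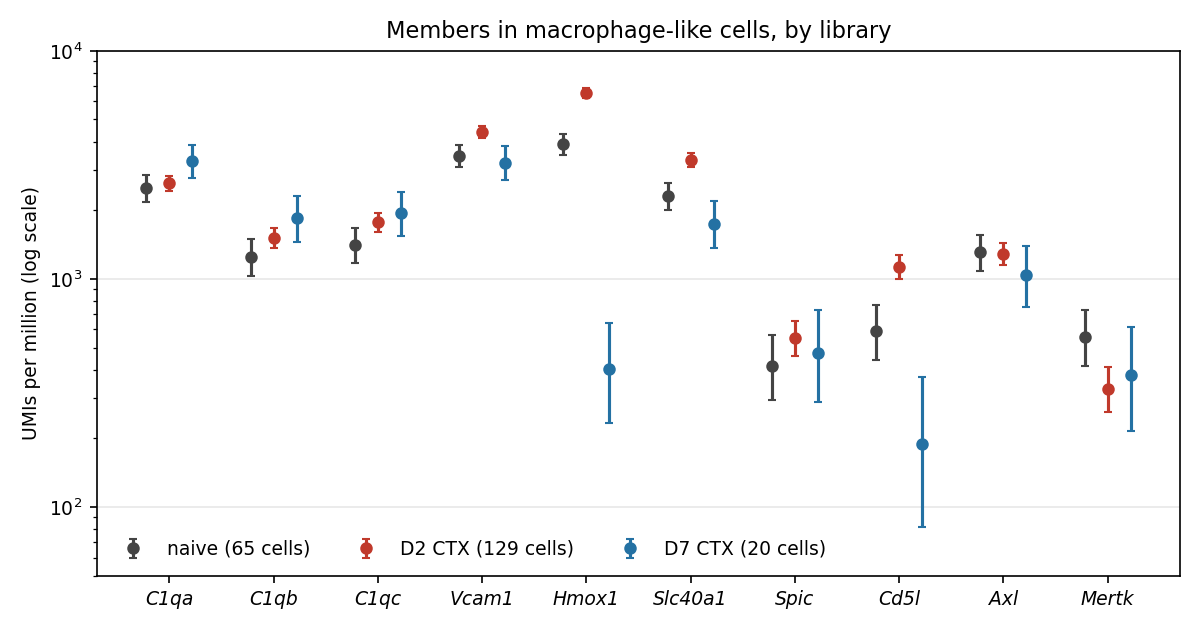
Level of the 10 genes in macrophages of naive (65 cells), D2 CTX (129 cells) and D7 CTX (20 cells) BM. Points are CPM on a log axis and bars are exact 95% Poisson intervals. *Hmox1* stands at 3902, 6513 and 401 CPM, the widest spread of the 10 genes, while the C1q genes stay close together.

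Over the whole library, C1q had the same order as the share of macrophages. The kept cells of naive, D2 CTX and D7 CTX BM held 699, 1955 and 371 C1q UMIs, which are 15.2, 57.6 and 5.46 CPM. The D2 level was 3.80-fold higher than naive, a log2 ratio of 1.92, and the D7 log2 ratio was -1.47. Macrophages held 67.5% of the C1q UMIs of the naive library, 73.6% at D2 and 80.6% at D7, though they gave only 0.199%, 0.717% and 0.0624% of all UMIs.

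*Hmox1* had 358, 1586 and 17 UMIs in naive, D2 CTX and D7 CTX macrophages. The levels were 3902 [3508 to 4328], 6513 [6197 to 6842] and 401 [234 to 643] CPM. The D7 level lay far below both others, and none of the 3 intervals overlapped. Against naive macrophages the log2 ratio was 0.74 [0.57 to 0.91] at D2 and -3.28 [-4.08 to -2.58] at D7, where the level was 9.72-fold lower. With at least 500 genes and under 10% mitochondrial UMIs per cell, which left 9 D7 macrophages, the D7 ratio was -2.26. Against D2, the D7 level was 16.2-fold lower. An *Hmox1* UMI was seen in 49 of 65 naive macrophages, in 121 of 129 from D2 CTX BM and in 7 of 20 from D7 CTX BM, and the median cell stood at 4383, 7156 and 0 CPM. The same order held in shallow and deep cells. Below 1000 UMIs the levels were 6557, 9107 and 523 CPM, and at 1000 UMIs or more they were 2848, 5823 and 375 CPM. With the deepest macrophage of each library left out they were 4137, 6274 and 460 CPM. Every D7 CTX macrophage held a C1q UMI, and for each 100 C1q UMIs there were 75.8, 110 and 5.69 *Hmox1* UMIs in naive, D2 CTX and D7 CTX macrophages.

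*Slc40a1* had 211, 808 and 74 UMIs in naive, D2 CTX and D7 CTX macrophages. The levels were 2300 [2000 to 2632], 3318 [3093 to 3555] and 1747 [1372 to 2193] CPM. The ferroportin gene was highest at D2 and lowest at D7. Set against naive cells, the log2 ratio was 0.53 [0.31 to 0.75] for D2 and -0.40 [-0.80 to -0.01] for D7, the latter with its upper end next to 0. With the stricter filter of at least 500 genes and under 10% mitochondrial UMIs the D7 ratio turned to 0.81, so its direction depends on the filter. Of the macrophages 80%, 85.3% and 70% held an *Slc40a1* UMI.

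*Vcam1* had 318, 1069 and 137 UMIs, or 3466 [3096 to 3869], 4390 [4131 to 4661] and 3234 [2716 to 3824] CPM. The island adhesion gene was highest at D2, and the naive and D7 intervals overlapped. Against naive cells its log2 ratio was 0.34 [0.16 to 0.53] for D2 and -0.10 [-0.40 to 0.19] for D7. It was seen in 78.5%, 91.5% and 85% of the macrophages.

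*Spic* had 38, 134 and 20 UMIs, or 414 [293 to 569], 550 [461 to 652] and 472 [288 to 729] CPM. The 3 intervals overlapped, and the log2 ratios of 0.41 [-0.12 to 0.97] at D2 and 0.19 [-0.67 to 1.01] at D7 both reach past 0. *Spic* was not detectably different between the libraries at this depth. Over the alternative settings of the analysis its log2 ratio ran from -0.60 to 1.60 at D2 and from -1.32 to 1.40 at D7. A difference in either direction thus remains possible. *Cd5l* had 54, 274 and 8 UMIs, or 589 [442 to 768], 1125 [996 to 1267] and 189 [81.5 to 372] CPM. Its 3 intervals did not overlap. The log2 ratio was 0.93 [0.51 to 1.38] at D2 and -1.64 [-2.92 to -0.56] at D7, a 3.12-fold lower level that rests on 8 UMIs in 6 cells. The D2 difference lay mostly in deep cells. *Cd5l* was at 366 and 1097 CPM in naive and D2 CTX macrophages of 1000 UMIs or more, against 1150 and 1231 CPM in those below.

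*Axl* had 120, 313 and 44 UMIs, or 1308 [1084 to 1564], 1285 [1147 to 1436] and 1039 [755 to 1395] CPM, with overlapping intervals. The log2 ratio was -0.03 [-0.33 to 0.29] at D2 and -0.33 [-0.87 to 0.18] at D7. *Mertk* had 51, 80 and 16 UMIs, or 556 [414 to 731], 329 [261 to 409] and 378 [216 to 613] CPM. Of the 10 genes it had the lowest D2 ratio, -0.76 [-1.28 to -0.22], and at D7 it stood at -0.56 [-1.47 to 0.28]. The D2 ratio turned to 0.045 with the stricter filter, so this direction also depends on the filter. Its D2 value was 78.2 CPM in the 74 macrophages below 1000 UMIs and 395 CPM in the 55 deeper ones, while naive macrophages held 575 and 548 CPM.

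A macrophage gene was counted as apart when the 2 levels, with 1 CPM added, differed by at least 1 log2 unit and the libraries held at least 50 UMIs together. At D2 over naive, 990 genes could be counted, of which 8.38% were higher and 2.73% lower. None of the 10 genes passed this limit in either direction at D2, and their median log2 ratio was 0.34 against 0.18 for all 990 genes. At D7 over naive 325 genes could be counted, of which 6.77% were higher and 6.46% lower. None of the 10 was higher and 2 were lower, *Hmox1* and *Cd5l*. *Cd5l* reached 50 UMIs only through the naive library, with 54 UMIs against 8 at D7, so nothing is read from its call. The median of the 10 was -0.22 against 0.19 for the 325 genes. At D7 over D2, where 6.26% of 846 genes were higher and 15.1% lower, *Hmox1* and *Cd5l* were lower and none of the 10 higher. The 3 comparisons share libraries, so they are not independent.

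Single macrophages carried many of the genes at once. The median cell had UMIs of 6, 7 and 6 of the 10 genes in naive, D2 CTX and D7 CTX BM, and the share of cells with at least 5 was 81.5%, 86.0% and 75%. All 10 genes were seen together in 6, 13 and 2 cells. C1q was seen in 62 of 65, 127 of 129 and 20 of 20 cells. All 49 naive macrophages with *Hmox1* also held C1q, as did 120 of the 121 at D2 and all 7 at D7. At D7 the other 13 macrophages had C1q and no *Hmox1*, against 13 of 65 in naive and 7 of 129 in D2 CTX BM. Together the genes made 1.77%, 2.34% and 1.45% of the macrophage UMIs.

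Because a deeper cell has more chances to show a gene, each cell was thinned to 500 UMIs, which keeps every macrophage. *Hmox1* was then seen in 67.7%, 87.6% and 20% [5.73 to 43.7] of naive, D2 CTX and D7 CTX macrophages. The D7 interval lay below both other shares. *C1qa* was seen in 73.8%, 63.6% and 75% and *Slc40a1* in 64.6%, 67.4% and 60%. *Vcam1* was seen in 67.7%, 77.5% and 75%, *Cd5l* in 29.2%, 37.2% and 20%, and *Axl* in 43.1%, 45.7% and 50%. *Mertk* was seen in 18.5%, 5.43% and 0%, though before thinning 4 of the 20 D7 CTX macrophages held it. In B lineage cells thinned in the same way, which were taken as the background, no gene was seen in more than 0.935% of cells of any library. With the 3 libraries pooled, *Spic* was at 3.24 CPM in small pre-B and 3.03 CPM in B cells, beside 3.15 CPM in monocytes. Whether that *Spic* is free RNA was not tested. Before thinning the median B lineage cell held 2808, 2529.5 and 7616.5 UMIs in the 3 libraries and was deeper than the median macrophage. Thinning to 1000 UMIs left 25, 55 and 8 macrophages. *Hmox1* was seen in 64%, 80% and 37.5% [8.52 to 75.5] of them, and the D7 interval then held the naive share. *C1qa* was seen in 68%, 81.8% and 87.5% and *Mertk* in 24%, 21.8% and 50%, so the order of *Mertk* depends on the depth. Thinning to 2000 UMIs left 13, 28 and 4 macrophages, with *Hmox1* in 46.2%, 92.9% and 50%.

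**Figure D2:**
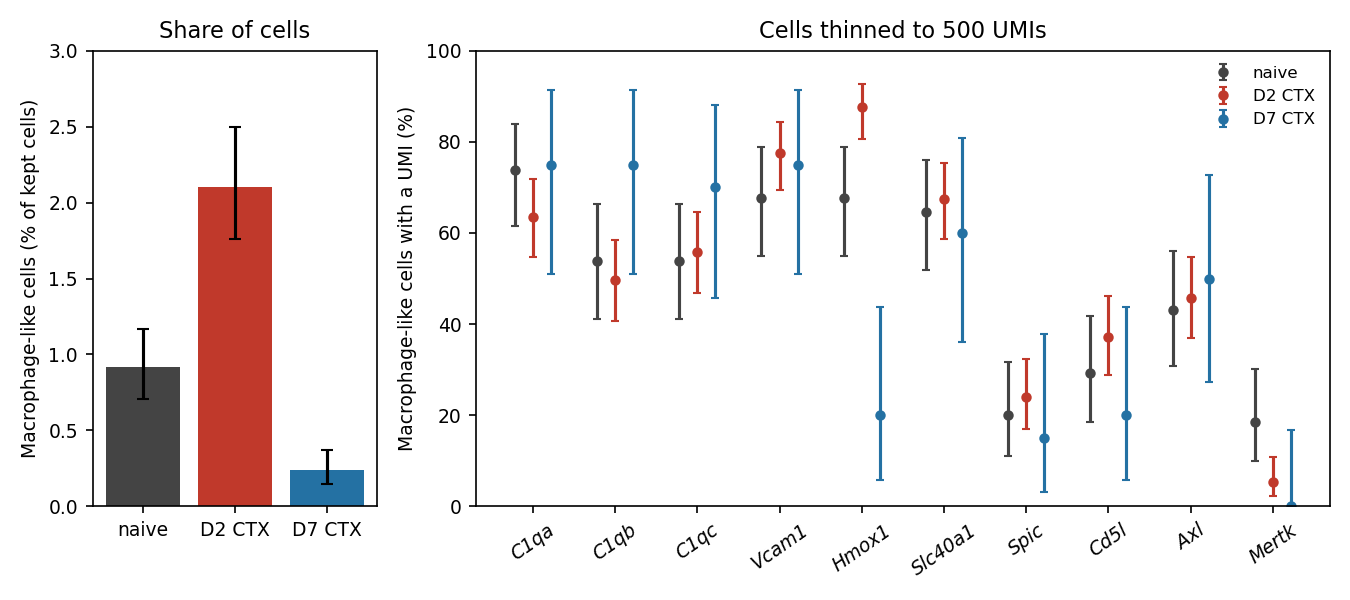
Left, macrophages as a percentage of kept cells of naive, D2 CTX and D7 CTX BM (0.915%, 2.11% and 0.241%), with exact 95% binomial intervals. Right, percentage of macrophages with a UMI of each gene after every cell was thinned to 500 UMIs, with the same kind of interval. *Hmox1* is seen in 67.7%, 87.6% and 20% of the cells.

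The genes differed in how far they were confined to macrophages. With the 3 whole BM libraries pooled, macrophages held 84.6% of the *Cd5l* UMIs, 79.0% of *Mertk*, 76.2% of *C1qc*, 67.4% of *Spic* and 61.3% of *Axl*. They held 41.4% of the *Hmox1* UMIs, 32.2% of *Vcam1* and 11.3% of *Slc40a1*. Summed C1q stood at 5850 CPM in macrophages, followed by 35.7 in monocytes, 18.8 in stromal cells and 13.6 in plasmacytoid dendritic cells. *Axl* was the gene with the largest monocyte part, 17.2% of its UMIs.

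**Figure D3:**
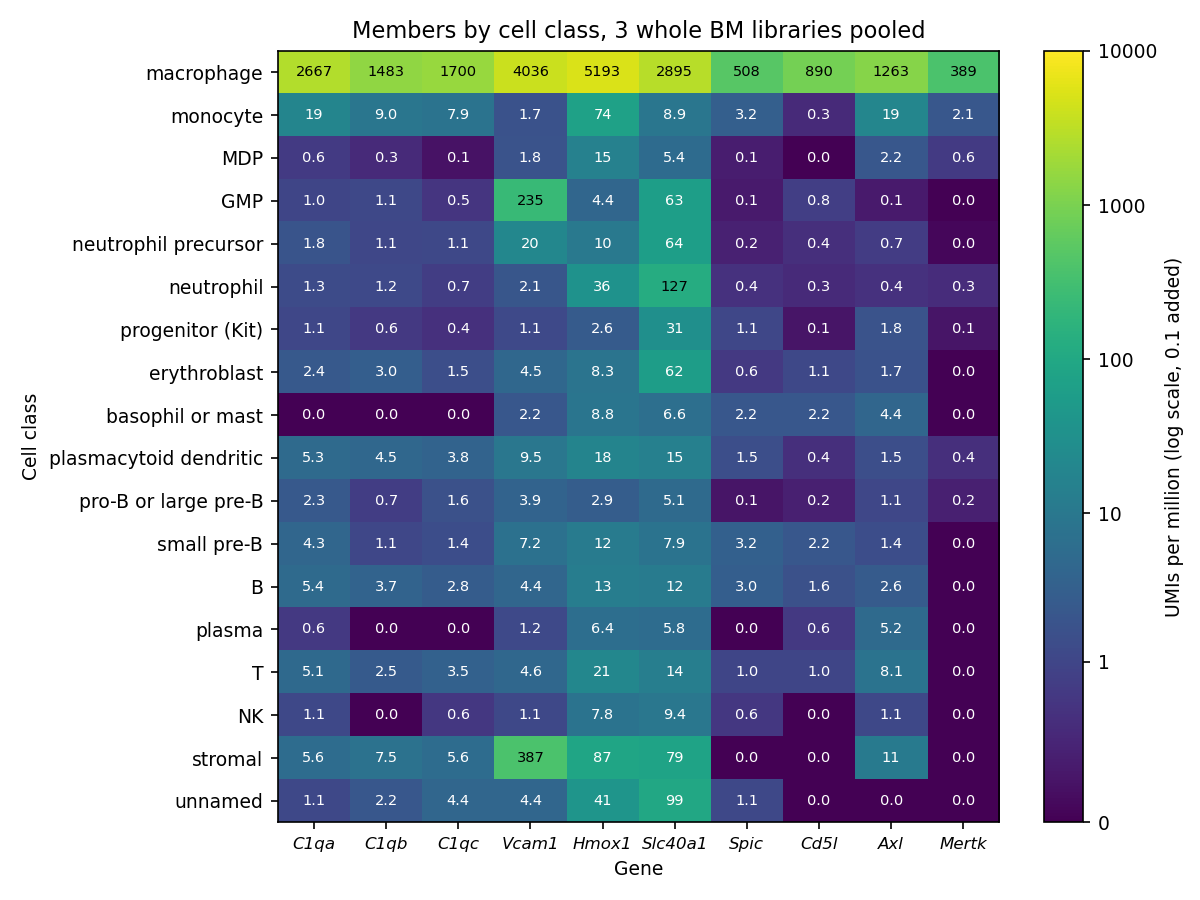
Level of each gene (columns) in 17 named cell classes and the unnamed cells (rows) of the 3 whole BM libraries pooled, in CPM, printed in each cell and coloured on a log scale. Macrophages are the highest row for every gene. *Vcam1* is also seen at 387 CPM in stromal cells and 235 CPM in GMPs, and *Slc40a1* at 127 CPM in neutrophils.

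*Vcam1* had a second site in the granulocyte-monocyte progenitors (GMPs), the precursors of neutrophils and monocytes. Their level was 159, 180 and 276 CPM in naive, D2 CTX and D7 CTX BM, with log2 ratios of 0.18 [-0.09 to 0.44] and 0.79 [0.61 to 0.97]. At D7 GMPs held 66.3% of the *Vcam1* UMIs of the library and macrophages 6.57%, against 31.6% and 32.7% in naive BM. In the neutrophil precursors below them *Vcam1* was at 26.8, 36.7 and 16.3 CPM, and in neutrophils at 2.48, 4.19 and 1.11 CPM.

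*Slc40a1* was the gene with the widest expression. Neutrophils held 124, 196 and 103 CPM in naive, D2 CTX and D7 CTX BM, neutrophil precursors 60.6, 94.9 and 59.7 CPM and GMPs 57.1, 40.8 and 69.2 CPM. Neutrophils held 38.1%, 45.4% and 45.5% of the *Slc40a1* UMIs of their library, more than the macrophages with 8.93%, 27.1% and 1.73%. In neutrophils the log2 ratio to the naive level was 0.66 [0.53 to 0.78] at D2 and -0.27 [-0.38 to -0.15] at D7.

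*Hmox1* was higher at D2 in each myeloid class examined, with no background subtracted. In monocytes it stood at 91.3, 161 and 44.0 CPM, with log2 ratios over naive of 0.82 [0.50 to 1.14] at D2 and -1.05 [-1.35 to -0.75] at D7. In neutrophils it stood at 33.5, 70.7 and 24.2 CPM, with ratios of 1.08 [0.85 to 1.31] and -0.47 [-0.70 to -0.24]. In neutrophil precursors the ratios were 1.51 [1.09 to 1.93] and -0.42 [-0.80 to -0.03] and in GMPs 1.72 [0.52 to 2.99] and -1.90 [-3.53 to -0.35]. Monocyte-dendritic progenitors (MDPs) differed in direction at D7, with 9.76, 19.6 and 14.9 CPM and a D7 ratio of 0.61 [-0.02 to 1.26]. B lineage cells, the background, held 3.33, 15.4 and 1.35 CPM of *Hmox1*, so this background was also highest at D2. For *Slc40a1* the same cells held 4.18, 13.3 and 6.77 CPM, and for C1q 5.80, 10.9 and 0.903 CPM. Pooled over the 3 libraries, GMPs held 35 *Hmox1* UMIs, or 4.38 CPM, and neutrophil precursors 434, or 10.3 CPM. Both levels lie within the span of the B lineage levels of *Hmox1*. In MDPs the step from naive to D2, 9.76 to 19.6 CPM, was smaller than that of the background, 3.33 to 15.4 CPM. A D2 difference beyond the background is thus not shown for MDPs. The part of this background in the levels of GMPs, precursors and MDPs was not tested. In macrophages, subtracting it left every ratio over naive in the same direction.

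**Figure D4:**
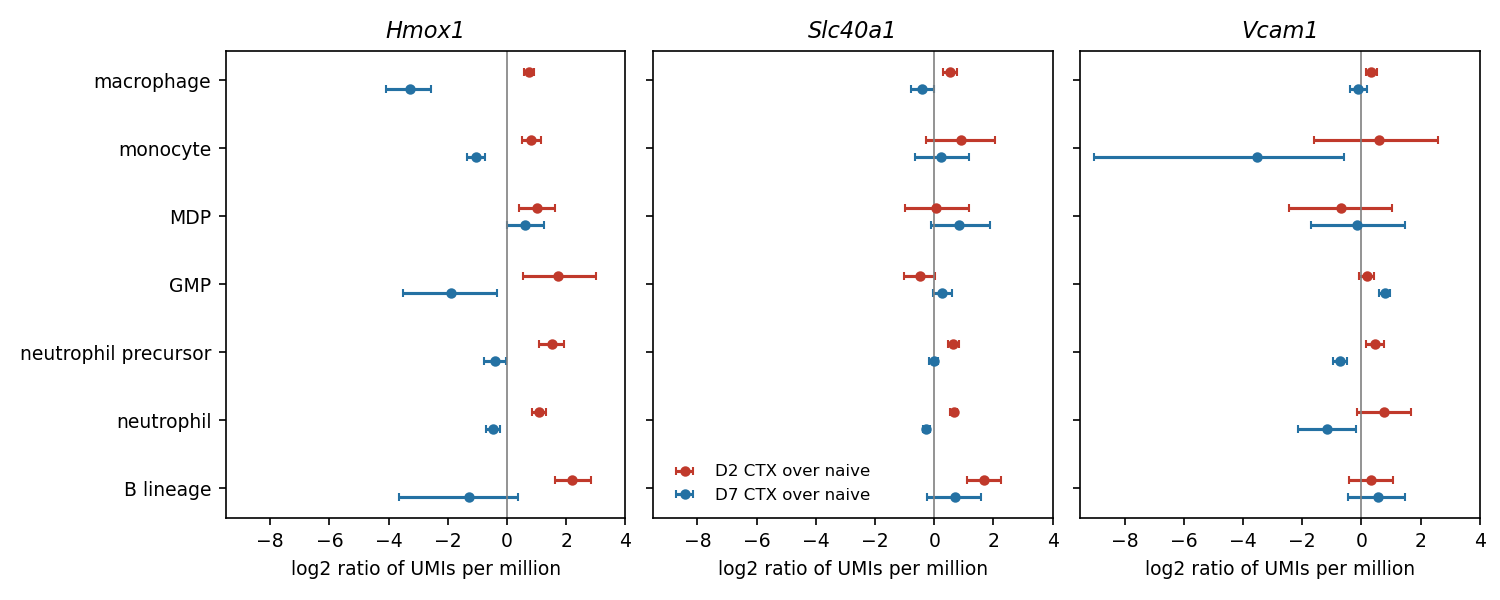
Log2 ratio of the level (CPM) over naive for *Hmox1*, *Slc40a1* and *Vcam1* in 7 cell classes, D2 CTX and D7 CTX shown apart, with exact 95% conditional intervals and a line at 0. The D2 points of *Hmox1* lie right of 0 in all 7 classes, and its D7 point in macrophages, at -3.28, is the farthest left.

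Among monocytes, 5 of the 10 genes had at least 50 UMIs in naive and D2 CTX BM together. *C1qa*, *C1qb*, *C1qc* and *Axl* were at least 1 log2 unit higher at D2, where 6.45% of 6234 genes were, but they reached 50 UMIs only through the D2 library, so nothing is read from that count. *C1qa* had 7 naive and 121 D2 UMIs, *C1qb* 10 and 53, *C1qc* 2 and 53 and *Axl* 36 and 73. *Hmox1* was the other one, and none of the 5 was lower, where 2.95% were. At D7 over naive, 2 of 3 were lower, *Hmox1* and *Axl*, where 0.895% of 7599 genes were, and none was higher, where 0.671% were. *Axl* reached 50 UMIs there only through its 36 naive UMIs, so nothing is read from its call. At D7 over D2, where 9.55% of 7059 genes were lower and 4.16% higher, *Hmox1* was lower, and so were the 4 genes that the D2 library alone had carried past the limit. In neutrophils 1 of 2, *Hmox1*, was higher at D2 than in naive BM, where 4.36% of 6990 genes were higher and 2.15% lower. Neither was past the limit at D7 over naive, where 0.489% of 7766 genes were higher and 2.02% lower. At D7 over D2, 2 of 3 were lower in neutrophils, *Hmox1* and *Vcam1*, where 15.9% of 7722 genes were lower and 2.2% higher. *Vcam1* had 68 UMIs in neutrophils of the 3 libraries together and could be counted in this comparison alone, so nothing is read from its call. The levels of *Axl* in monocytes were 15.6, 84.7 and 6.54 CPM in naive, D2 CTX and D7 CTX BM.

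The C1q of monocytes lay in few cells. C1q was seen in 8 of 404 naive, 17 of 155 D2 CTX (10.97% [6.52 to 16.98]) and 3 of 550 D7 CTX monocytes, and at least 3 C1q UMIs in 3, 9 and 0 cells. The class held 19, 227 and 3 C1q UMIs, or 8.26, 263 and 0.785 CPM. The B lineage background was 5.80, 10.9 and 0.903 CPM, so the D7 level lay below it and the D2 level far above it. In naive BM the mean level was near it, but 3 cells held 14 of the 19 UMIs, and 1 of them held 8 C1q, 12 *Hmox1* and 6 *Axl* UMIs. A single D2 cell held 95 of the 227 UMIs, and without it the D2 level was 154 CPM. The chains stood in proportions near those of macrophages, 53.3% *C1qa*, 23.3% *C1qb* and 23.3% *C1qc*. The 9 D2 cells with at least 3 C1q UMIs carried part of the remaining set. They held 18 UMIs of *Axl*, 13 of *Hmox1*, 2 of *Mertk* and 2 of *Spic*, and none of *Vcam1*, *Slc40a1*, *Cd5l* or the macrophage marker *Fcna*. Some other macrophage markers were higher in them than in D2 monocytes with no C1q, *Mrc1* at 189 against 51.0 CPM, *Adgre1* at 357 against 122 CPM and *Siglec1* at 84.1 against 22.2 CPM, from 9, 17 and 4 UMIs. *Vsig4*, *Marco* and *Timd4* had no UMI in either group, and *Ccr3* had 0 and 1. *Ccr2*, a leading gene of the monocyte cluster, was at 1639 against 1711 CPM. Against the same monocytes the 9 cells were rich in the class II genes *H2-Ab1* (5275 against 1153 CPM) and *Cd74* (13325 against 3187 CPM) and in *Apoe* (9500 against 3785 CPM). They were poor in *Ly6c2*, the gene of the sorting antigen (42.03 against 503 CPM). None of the 9 was marked as a doublet.

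Other genes of the same functions were counted in macrophages from lists of complement, engulfment, iron and heme, NRF2 and BACH1 target, transcription factor and island surface genes. Beside the counts at D2 stand 8.38% higher and 2.73% lower among all 990 genes. Genes that reached 50 UMIs mainly through the D2 library, as *Calr*, *Nr1h3*, *Blvra*, *Fbxl5*, *Txnrd1*, *Gclc* and *Gclm* did, had little chance to be counted unless they were high there, so the counts support nothing about the lists. At D2 over naive, 1 of 4 complement genes with enough UMIs was higher and none lower, with a median log2 ratio of 0.67. It was *Calr*, which encodes calreticulin, at 196, 522 and 543 CPM in naive, D2 CTX and D7 CTX macrophages. *Cfp*, which encodes properdin, was at 480, 768 and 590 CPM. Of 7 engulfment genes 1 was higher and none lower, with a median of 0.21. It was *Nr1h3*, the LXR alpha receptor, at 76.3, 177 and 118 CPM. *Lrp1*, a scavenger receptor, was at 262, 415 and 283 CPM, and *Rac1*, a GTPase of the engulfing cup, at 262, 365 and 519 CPM.

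Of 12 iron and heme genes 2 were higher and 1 lower at D2, with a median of 0.19. *Blvra*, the biliverdin reductase that acts after heme oxygenase, was at 87.2, 193 and 212 CPM. *Fbxl5*, an iron sensor, was at 98.1, 214 and 94.4 CPM. *Lcn2*, which is also a neutrophil granule gene, was lower, at 4066, 1967 and 1440 CPM. The ferritin chains were *Ftl1* at 13484, 16743 and 12607 CPM and *Fth1* at 9788, 11146 and 6776 CPM, with a D7 log2 ratio of -0.53 for *Fth1*. At D7 over naive, 1 of 6 iron genes was lower, again *Lcn2*, and none higher. *Blvra*, the next enzyme in heme breakdown, thus did not share the low D7 level of *Hmox1*, and its 9 UMIs at D7 give a ratio of 1.28 [-0.26 to 2.86].

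Of 8 NRF2 and BACH1 targets, a list whose oxidative stress genes share regulators with *Hmox1*, 3 were higher and none lower at D2, with a median of 0.47. They were *Txnrd1*, which encodes thioredoxin reductase, and *Gclc* and *Gclm*, which encode the chains of the enzyme that starts glutathione synthesis. *Txnrd1* had 6, 55 and 0 UMIs and *Gclm* 9, 67 and 0 UMIs in naive, D2 CTX and D7 CTX macrophages. *Gclc* had 6, 46 and 1 UMIs. The log2 ratios at D2 were 1.79, 1.49 and 1.53 in that order of mention. At D7 over naive none of the 4 that could be counted was higher or lower, and these 3 held too few UMIs to be among them. The D7 limit that a count of 0 allows was 70.8 CPM, which lies above the naive *Txnrd1* level of 65.4 CPM. Of 7 macrophage transcription factors 1, *Nr1h3*, was higher and none lower, with a median of -0.07. *Maf* was at 447, 854 and 708 CPM and *Cebpb* at 273, 448 and 614 CPM. *Cebpb* was the 1 higher of 4 factors at D7. Of 5 island surface genes none was higher or lower at D2, with a median of 0.21, and *Cd163*, the receptor for haemoglobin bound to haptoglobin, was at 469, 579 and 142 CPM, a D7 log2 ratio of -1.73 [-3.25 to -0.49].

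Transcripts of other cells were present in the macrophages. A list of 10 neutrophil genes made 18.6%, 9.65% and 10.3% of macrophage UMIs in naive, D2 CTX and D7 CTX BM, against 1.01%, 1.37% and 3.84% in B lineage cells and 47.6%, 38.7% and 50.3% in neutrophils. All 10 were detected in each library. At D2 over naive, 2 of 8 neutrophil genes were higher and 4 lower, with *Camp* at -2.80 and *Ngp* at -2.27. A list of 8 erythroid genes made 0.536%, 0.265% and 0.00236% of macrophage UMIs, which are 492, 646 and 1 UMIs. Of these genes 7, 6 and 1 were detected, and *Hba-a1* was the 1 seen in D7 CTX. At D2 over naive, 2 of 4 were lower and none higher, *Hbb-bt* and *Hba-a1*. Erythroid RNA in the macrophages was lowest at D7, as were the share of erythroblasts in the library and macrophage *Hmox1*. In B lineage cells the erythroid list made 0.108%, 0.123% and 0.00122% of UMIs, so this background was also lowest at D7. At D2 erythroid RNA in the macrophages was below naive while *Hmox1* was above. Whether these levels are linked was not tested. Of 8 B lineage genes 1, 6 and 1 were detected, at 0.00872%, 0.0374% and 0.0189% of the UMIs, with *Vpreb1* and *Igll1* at 0 in all 3 libraries. Of 9 stromal and endothelial genes 2 were detected in each library, with 2, 2 and 6 UMIs in all and with *Cdh5*, *Kdr*, *Emcn*, *Pdgfrb* and *Col3a1* at 0 throughout. The part of these transcripts in the levels above was not tested.

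Over 49 groups of cells (class by library, at least 20 cells each), the genes whose log2 level followed that of summed C1q most closely were ranked among 1128 genes by Pearson's r. Groups of 1 library share their depth and their free RNA, and macrophages weigh heavily in r. The closest that were not in the set were *Fcna* (0.89), *Col14a1* (0.87), *Kcnj10* (0.86), *Mrc1* (0.83), *Timd4* (0.83), *Ms4a7* (0.82), *Nr1h3* (0.81), *Sdc3* (0.79), *Slc1a3* (0.79) and *Abcc3* (0.78). *Fcna*, *Mrc1* and *Timd4* had been used to name the macrophages. Within the set, *Spic* (0.87), *Cd5l* (0.87), *Mertk* (0.86), *Axl* (0.83) and *Hmox1* (0.82) ranked 2, 4, 5, 7 and 10. *Vcam1* (0.69) and *Slc40a1* (0.64) ranked 32 and 53.

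The sorted CD11b+Ly6Chi cells lacked the core of the set. No UMI of *C1qa*, *C1qb*, *C1qc* or *Cd5l* was found among 50902112 UMIs of 1891 naive and 2564 CTX cells, which allows up to 0.135 CPM in naive and 0.105 CPM in CTX cells. Of the macrophage markers, *Vsig4*, *Ccr3* and *Marco* were also at 0, but the others were not. *Apoe* had 13984 naive and 10639 CTX UMIs, *Adgre1* 1006 and 1092 and *Mrc1* 112 and 85. *Siglec1* had 30 and 7, *Fcna* 16 and 16 and *Timd4* 3 and 0. Of the 10 genes *Hmox1* had the most UMIs, 1138 in naive and 997 in CTX cells, or 51.1 and 34.8 CPM, a log2 ratio of -0.55 [-0.68 to -0.43]. It was highest in the small cluster rich in class II genes, with 103 CPM in naive and 79.9 in CTX cells. *Axl* had 71 and 53 UMIs, or 3.19 and 1.85 CPM, and stood highest, at 30.2 and 50.1 CPM, in the cluster led by the interferon-induced *Ifit3*, *Rsad2* and *Ifit2*. *Spic* had 6 and 5 UMIs. *Mertk* had 10 UMIs in 10 naive cells and 0 in CTX cells. Against the limit of 3 UMIs per library CTX was at least 4.28-fold lower, if the naive level of 0.449 [0.215 to 0.825] CPM is taken as exact.

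*Vcam1* was found in 3 naive and 23 CTX sorted cells, with 3 and 82 UMIs, or 0.135 and 2.86 CPM, a log2 ratio of 4.41 [2.81 to 6.72]. Of the 82 UMIs, 79 lay in 1 cluster led by *Ms4a3*, *Nkg7* and *Prss57*, which held 7 naive and 50 CTX cells. Within it the level was 13.1 [1.59 to 47.4] CPM in naive and 96.3 [76.2 to 120] CPM in CTX cells. The naive value rests on 2 UMIs and lies below the limit of 3 counts, 19.7 CPM. *Slc40a1* had 10 and 49 UMIs, or 0.449 and 1.71 CPM, a log2 ratio of 1.93 [0.93 to 3.08]. The cluster led by the granule genes *Retnlg*, *Camp* and *Ngp* held 8 and 31 of them and the *Ms4a3* cluster 1 and 17, and only 1 and 1 lay in the remaining monocytes. Of the 4 genes that could be counted in sorted cells, *Vcam1* was at least 1 log2 unit higher with 1 CPM added, where 0.337% of 10673 genes were, and none was lower, where 0.909% were. *Vcam1* could be counted only through its 82 UMIs in CTX cells, so nothing is read from that call.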

How the data were processed

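The authors deposited UMI counts per gene and barcode from 5 libraries (3 of whole BM, 2 of sorted cells), made from 10x Genomics 3′ V3 reads with Cell Ranger 3.1, and the submitters' processing notes also name Seurat 5.0. The counts are raw whole numbers, unnormalized, with at least 500 UMIs in each deposited barcode, and the files of barcodes and genes only name their rows and columns. Libraries held between 22694817 and 68459527 UMIs.

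Cells with at least 200 genes and under 20% mitochondrial UMIs were kept. Whole BM and sorted cells were clustered apart in Seurat 5.3.0 (R 4.3.3), with 10000 UMIs per cell as scale, 2000 variable genes without the 10 described, 30 principal components, reciprocal PCA integration and resolution 0.8. A cluster took a name when at least 3 of its markers were detected, their mean level, scaled from its lowest to its highest cluster, was at least 0.5 and a marker was among its 10 leading genes, a rule set after the clusters were seen. Doublets were scored with Scrublet in scanpy 1.11.5 and kept, and 0.8% per 1000 barcodes were left out in an alternative. Levels, exact Poisson, Clopper-Pearson and conditional intervals (95%) and thinning used Python 3.11.15, numpy 2.4.6, scipy 1.17.1, pandas 2.3.3 and matplotlib 3.10.9, and the counting steps were checked on simulated data. Intervals cover counting error only. A count of 0 is read against a limit of 3 counts. A fold against 0 uses that limit per library.

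With 1 library per condition no test was run. Named genes were the 10, the 10 others most like C1q, and from each list those at least 1 log2 unit apart at D2 plus up to 3 of the most counted. The 10 genes and the lists were chosen with earlier results of these data known, and the motifs after the promoters were read. *Ccr3*, *Vsig4* and other markers named the macrophages, so their levels there are no result. Sequences came from RefSeq on GRCm38.p6 and gene positions from GENCODE M21. RefSeq promoters were held here for 6 of the 10 genes.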

Additional observations from a re-analysis of the deposited data

Results flagged for a closer look

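At D2 over naive, *Mertk* moved in opposite directions in macrophages and monocytes of the same libraries, which differ by 5.88 log2 units (macrophages -0.76, from 51 and 80 UMIs, and monocytes 5.12, from 1 and 13 UMIs). The difference was not tested, since each condition had 1 library, and the monocyte side holds 14 UMIs in all, fewer than the 50 asked of other comparisons. With at least 500 genes and under 10% mitochondrial UMIs per cell the macrophage ratio turned to 0.045, so the opposite directions do not hold there.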

How the results depend on the processing

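The lower D7 level of *Hmox1* in macrophages kept its direction under all 12 alternatives (log2 ratio -3.65 to -2.26), as did its higher D2 level (0.47 to 1.49), the D7 level of *Cd5l* (-1.93 to -1.13) and, under 8 alternatives, the higher D2 share (1.17 to 1.55) and lower D7 share of macrophages (-2.65 to -1.81). The C1q level in macrophages was less stable. Its D2 ratio over naive was 0.86 with at least 500 genes and under 10% mitochondrial UMIs, -0.17 as the mean of the cells' CPM, 0.44 in macrophages of at least 1000 UMIs and -0.082 in those under 1000 UMIs. Its D7 ratio was 1.04 with the stricter filter, 0.97 without integration and 0.12 with the 10 genes allowed to drive the clustering. The share of C1q UMIs in macrophages was 50.7%, 68.6% and 75.1% with the stricter filter, in the order naive, D2 CTX, D7 CTX, 70.1% in D7 CTX without integration, and 73.0% in naive and 85.4% in D7 CTX BM with the 10 genes allowed. The stricter filter left 27, 64 and 9 macrophages and turned *Mertk* at D2 to 0.045 and *Slc40a1* at D7 to 0.81. Without a filter on low counts, 3754 genes were higher and 1659 lower at D2, and 2714 higher and 3033 lower at D7. In sorted cells, *Slc40a1* turned to -0.33 when the clusters led by granule or immunoglobulin genes were left out, and *Vcam1* then had no naive UMI and no ratio. Over all results and alternatives, 365 values stayed within the counting interval of the reported value (a count of genes within 1.5 times), 91 lay outside it and 5 whose interval lay off 0 turned direction, and the cause was not tested. The splits by depth, the setting without the deepest macrophage, thinning to 500 UMIs and C1q in monocytes without the cell that held most were added after the data were seen.

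Limits are few cells and shallow cells. The D7 values rest on 20 macrophages with 42357 UMIs, of which the deepest cell gave 23.0%, and a gene of 3 UMIs there is at 70.8 CPM. Each condition is 1 pool, so the spread between mice is unknown. No paired analysis was possible because each group had 1 library and no test was run.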
